A study of Mus musculus with 47 samples.

Results

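The 3 arrays labelled GMP were compared with the other 44 of a set of 47 Affymetrix arrays of sorted mouse haematopoietic cells. Members were chosen by the first word of the array title, GMP, and not by any measured value. All arrays came from bone marrow of adult C57Bl6 mice, with no treatment or transgene named, and the labelled RNA of each came from 2000 cells. The other groups were LTHSC, STHSC, CLP, GM, ProB, IgM+SP, CD4 and NKmature with 2 arrays each, PreCFUE, CFUE, ProE, MkP and ETP with 3 each, MkE and PreB with 4 each, and LMPP with 5. The labels give these group names without the surface markers of the sorts. They call the arrays biological replicates and name no animal or pool, so p-values here measure the spread between arrays. GMP was set against each of the 16 other groups and against their mean, with every group weighted equally. All 16 comparisons share the same 3 GMP arrays.

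GMP is the usual abbreviation of the granulocyte-macrophage progenitor, a committed bone marrow cell that gives rise to neutrophils, monocytes and related cells and no longer makes red cells, platelets or lymphocytes in quantity. In this lineage, transcription factors of the C/EBP family and PU.1 (Spi1) act together on myeloid genes. The cells begin to fill primary (azurophil) granules with myeloperoxidase and serine proteases, which pass through the endoplasmic reticulum, while the proteins of later granules are made at later stages of neutrophil maturation.

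The promoters of 5 genes with high GMP levels are shown because they are 4 genes of primary granule proteins and the marker gene Ms4a3. Each line gives the 250 bases before the RefSeq start of the gene (assembly GRCm38.p6), read 5′ to 3′ along the gene's own strand. Elane lies at chr10:79886062-79886311 on the + strand, Prtn3 at chr10:79879417-79879666 on the + strand and Mpo at chr11:87793534-87793783 on the + strand. Ctsg lies at chr14:56102575-56102824 on the - strand and Ms4a3 at chr19:11640852-11641101 on the - strand. Capitals mark GAGGAAGT, a core of the type bound by PU.1 and other ETS factors, and TTNNGNAA, a core of the C/EBP type; both strands were searched, and the motifs were picked after matches in these windows had been seen.
Elane: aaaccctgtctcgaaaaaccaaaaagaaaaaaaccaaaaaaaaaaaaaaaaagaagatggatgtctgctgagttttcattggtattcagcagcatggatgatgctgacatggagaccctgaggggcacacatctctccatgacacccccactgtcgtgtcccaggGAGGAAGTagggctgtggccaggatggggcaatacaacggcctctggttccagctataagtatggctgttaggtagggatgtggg
Prtn3: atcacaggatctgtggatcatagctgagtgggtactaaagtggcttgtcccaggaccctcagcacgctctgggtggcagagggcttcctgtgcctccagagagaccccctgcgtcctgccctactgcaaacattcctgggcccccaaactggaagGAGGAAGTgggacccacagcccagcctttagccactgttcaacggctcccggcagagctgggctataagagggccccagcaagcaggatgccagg
Mpo: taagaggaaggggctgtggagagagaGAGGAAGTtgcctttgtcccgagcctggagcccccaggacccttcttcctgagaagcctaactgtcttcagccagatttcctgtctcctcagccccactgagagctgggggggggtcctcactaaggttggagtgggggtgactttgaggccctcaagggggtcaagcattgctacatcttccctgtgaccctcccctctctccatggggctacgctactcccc
Ctsg: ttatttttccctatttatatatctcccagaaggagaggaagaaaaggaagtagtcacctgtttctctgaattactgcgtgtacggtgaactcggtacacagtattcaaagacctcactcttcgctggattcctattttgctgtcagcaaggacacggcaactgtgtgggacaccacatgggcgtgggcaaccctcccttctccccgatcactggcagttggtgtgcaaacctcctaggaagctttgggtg
Ms4a3: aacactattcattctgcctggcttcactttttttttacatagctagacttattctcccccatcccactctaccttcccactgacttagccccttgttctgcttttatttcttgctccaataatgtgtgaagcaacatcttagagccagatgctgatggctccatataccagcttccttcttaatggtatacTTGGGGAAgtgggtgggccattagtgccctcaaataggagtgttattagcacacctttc
GAGGAAGT stood 85 to 78 bases before the start in Elane, 95 to 88 in Prtn3 and 224 to 217 in Mpo. In Ms4a3 the C/EBP-type core read TTGGGGAA, 59 to 52 bases before the start. The Ctsg window held neither string. GAGGAAGT occurred in 2.44% and TTNNGNAA in 36.8% of all 32851 RefSeq windows of this length. Among 89 windows of the 70 genes that could be matched, out of the 91 genes described below as higher in GMP than in every other group, 5 windows (5.62%) held the first and 31 (34.8%) the second. A match describes the letters of the window and nothing about binding. Elane and Prtn3 are neighbours on chromosome 10 with 0 protein-coding genes between them, and the same holds for Ms4a3 and Ms4a2 on chromosome 19 and for Ctsg and Mcpt8 on chromosome 14.

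The 4 GMP marker genes were highest on the GMP arrays. They were chosen with earlier results of these data known, so their levels are not an independent check of the label. Levels are log2 of the deposited linear intensity, so 1 unit is a 2-fold difference, and a level can be compared between groups for the same gene but not between genes. Ms4a3, a membrane protein of early granulocytic cells, read 11.2, 11.3 and 11.3 on GMP replicates 1, 2 and 3. The next highest group was GM at a mean of 7.67, and no other array passed 7.75. Elane, neutrophil elastase, read 8.62, 8.20 and 8.55, against 6.81 and 7.87 on the 2 GM arrays. Ctsg, the granule protease cathepsin G, read 12.7 on each GMP array and 11.8 on both GM arrays. Hp, haptoglobin, read 10.7, 10.5 and 10.4, and the highest other array was at 8.07. For all 4 genes the lowest GMP array was above every one of the 44 other arrays. Against the mean of the 16 groups, the log2 difference was 6.68 ± 0.21 (SE) for Ms4a3, with an adjusted p of 3.6e-25 in the limma fit. Elane differed by 3.28 ± 0.21 (adjusted p = 2.9e-15), Ctsg by 6.59 ± 0.40 (2.9e-16) and Hp by 5.40 ± 0.28 (3e-18). Against GM alone, Ctsg did not pass the test (0.88 ± 0.61, adjusted p = 0.44), and Elane passed with a difference of 1.12 ± 0.33 (adjusted p = 0.019). In bulk RNA, a higher share of cells with a transcript and more of it per cell cannot be told apart.

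**Figure D1:**
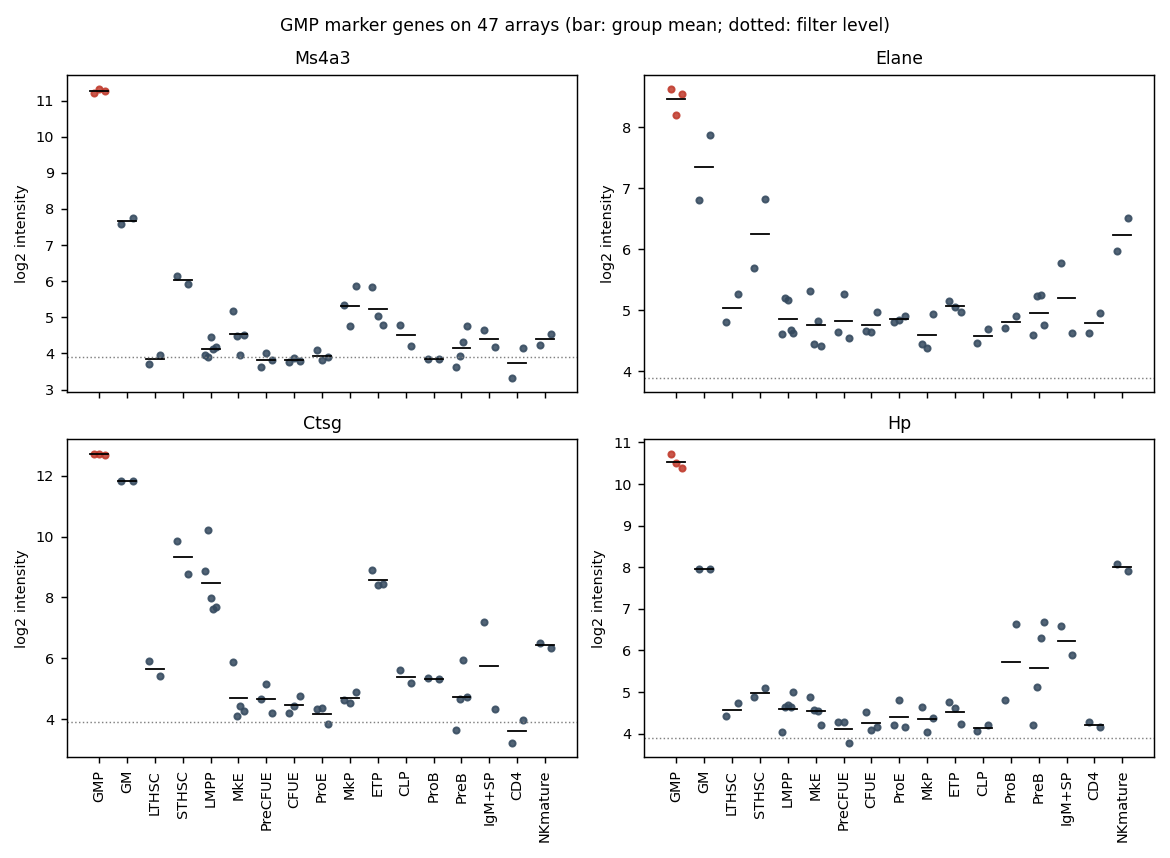
Level of the 4 GMP marker genes on all 47 arrays (log2 intensity, vertical axis) by group (horizontal axis); points are arrays, short bars are group means and the dotted line is the level used to leave out dim genes. The 3 GMP arrays, in red, sit above every other array in all 4 panels, and GM is the next group for Ms4a3, Elane and Ctsg.

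Across the 13949 genes tested, the 3 GMP arrays correlated with each other at 0.995 to 0.997. As a description of likeness, the mean correlation with GMP was 0.958 for GM, 0.930 for ETP, 0.917 for LMPP and 0.909 for MkE, and lowest for CD4 at 0.817 and CLP at 0.828. Array medians ran from 13.8 to 16.9 and upper quartiles from 50.2 to 75.7 in linear intensity, with the lowest upper quartiles on the CLP arrays. One pattern cuts across the groups: the GMP arrays read the Y-linked Eif2s3y (above 5) without Xist (above 7), the RNA of the inactive X chromosome. Every LTHSC, STHSC, ProE, CLP and IgM+SP array showed the same pattern, and some LMPP, PreB and ETP arrays did. No array of MkE, PreCFUE, CFUE, MkP, GM, ProB, CD4 or NKmature did, so for these 8 groups the sex pattern and the group cannot be told apart.

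The arrays labelled ProB went against their label on the marker lists. Their mean level of plasmacytoid dendritic genes, 10.9 to 11.3, was the highest of all groups, with PreB next at 6.79 to 7.98. Their NK cell genes averaged 8.54 to 8.84, second to NKmature at 10.6 to 10.7, and their B cell genes 5.74 to 7.37 beside 9.19 to 10.6 on PreB. ProB below means the arrays so labelled. Without them, GMP had 1155 genes higher and 597 lower against the mean of 15 groups, 96 genes higher than each group, which include all 91 described below, and the same 5 lower than each group.

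Genes were called at an adjusted p under 0.05 and a difference of at least 2-fold. Against the mean of the other groups, 1199 genes (8.60% of those tested) were called higher in GMP and 639 (4.58%) lower. With several probe sets of a gene averaged in place of the brightest, the higher count was 788. Against single groups, the fewest calls came with GM, 411 higher and 698 lower. ETP gave 923 and 817, MkE 1223 and 947, and LMPP 1480 and 870. CLP gave the most higher calls, 3694, beside 1312 lower ones. As shares of all genes tested, higher and lower calls were 14.4% and 13.9% against LTHSC, 17.4% and 9.18% against STHSC, 9.82% and 6.74% against PreCFUE, 10.8% and 9.51% against CFUE, 12.4% and 8.65% against ProE and 15.9% and 5.56% against MkP. Against the mature and lymphoid groups they were 16.7% and 12.8% for ProB, 12.5% and 10.3% for PreB, 17.4% and 8.37% for IgM+SP, 14.8% and 13.7% for CD4 and 12.2% and 13.3% for NKmature. The STHSC and LMPP splits leaned to higher calls by 65.4% and 63.0%, and a second quantile normalization took these shares to 52.4% and 50.8%. The same step took the share of higher calls from 74.1% to 50.5% against MkP and from 73.8% to 54.7% against CLP, while centring on array medians gave 84.3% against CLP.

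**Figure D2:**
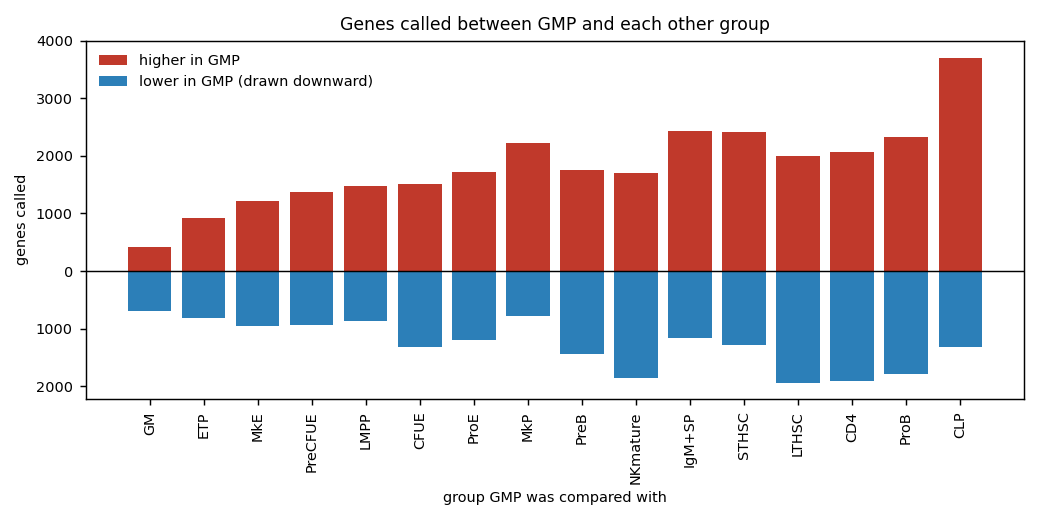
Genes called between GMP and each of the 16 other groups (number of genes, vertical axis; higher in GMP above 0 in red, lower below 0 in blue), ordered by the total. GM, with 411 higher and 698 lower, has the fewest calls, and CLP, with 3694 higher, the most higher ones.

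The GMP mean was the highest of the 17 groups for 778 genes (5.58%). For 91 genes (0.652%) GMP was called higher than each of the 16 groups separately. None of the 91 overlapped any of the 44 other arrays. The calls that define the 91 make this likely, and the share of all genes without such overlap was not counted, so it is not a result. Of the 91, 16 passed the filter on dim genes only through GMP, so that a difference was built into their selection. The gap between GMP and the next group ran from 1.00 to 4.95 with a median of 1.64. GM was the next group for 33 genes, NKmature for 13 and IgM+SP for 10. A further 76 genes were highest in GMP and called in 15 of 16 comparisons, with GM the exception in 30. Among arrays with the same sex pattern as GMP (19 arrays with GMP included, from 8 other groups, ETP with 1 array), 85 of the 91 were called higher than each of the groups available. With the sex pattern as a term in the fit of all arrays, 65 genes were called higher than each group, 56 of them among the 91. For groups with Xist and no Eif2s3y, that term rests on PreB, the only group with such arrays beside arrays of the GMP pattern. Of the 91 genes, 52 have several probe sets, and in 32 of those at least 1 probe set differed from the mean of the 16 groups by less than 1.

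Mgam, maltase-glucoamylase, had the widest gap. It read 8.16, 8.02 and 8.02 on the GMP arrays, and the highest other array was at 3.25. GMP stood 5.25 above the mean of the groups; Mgam passed the filter only through GMP, so this value is given without a test. Prom1, the membrane protein CD133, read 9.39, 9.36 and 9.10, against at most 5.30 elsewhere, on an array of NKmature. Sgms2, a sphingomyelin synthase, read 9.44, 9.32 and 9.36, while IgM+SP was next at a mean of 5.62 and CD4 was lowest at 2.37. For all 3 genes the GMP arrays lay above every other array, but they were ranked by their gap to the other groups, so this is not a result.

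The next genes encode receptors and sensors of myeloid cells and a lipid mediator enzyme; Igsf6, Ltb4r1 and Lta4h among them were picked after their values were seen. Trem3, of the TREM family, read 10.2, 10.1 and 9.98, and NKmature was next at 6.33. Clec5a, a C-type lectin receptor of myeloid cells, read 7.31, 7.16 and 6.97, with every other array at 3.80 or below. Olr1, a scavenger receptor for oxidised lipoprotein, read 6.84, 6.94 and 6.77, with every other array at 3.40 or below. Clec5a and Olr1 passed the filter on dim genes (3.889) only through GMP, so a difference was built into their selection. Clec4a2, another C-type lectin receptor, read 8.70, 8.55 and 8.58 against at most 5.42. Its 2 probe sets differed from the mean of the groups by 5.11 and 0.63, so the size depends on the probe set. Igsf6, an immunoglobulin superfamily receptor, read 9.42, 9.24 and 9.05, against at most 6.90. Mefv, pyrin, a sensor protein of phagocytes, read 7.61, 7.48 and 7.52 against at most 4.95. Ltb4r1, the receptor for leukotriene B4, read 6.77, 6.71 and 6.57 against at most 5.67. Lta4h, the enzyme that makes leukotriene B4, was called too, with a difference from the mean of the groups of 2.24 ± 0.20 (adjusted p = 8.6e-12), but its 3 probe sets ranged from -0.25 to 3.18.

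Other leading genes encode membrane and junction proteins, lipid enzymes and regulators. Cldn15, a claudin, read 7.27, 7.16 and 7.07 and Dmkn, dermokine, read 7.37, 7.26 and 7.02, with no other array above 3.96 for either. Far2, a fatty acyl-CoA reductase, had MkP as the next group, 3.19 below. Mtus1 stood 3.14 and Tmem178 3.07 above GM. Ncam1, a neural cell adhesion molecule, read 8.58, 8.46 and 8.35 on its brightest probe set, but its 7 probe sets differed from the mean of the groups by between -0.10 and 4.04. Abca13, an ABC transporter, read 6.18, 6.24 and 6.35 against at most 4.07. Its other group means were all under the filter level of 3.889, so a difference was built into its selection. For Cldn15 and Dmkn above and Chst13 below, the highest other arrays lay near that level, and the same may hold. Dram1, a regulator of autophagy, read 9.55, 9.31 and 8.95 against at most 6.66, and Chst13, a chondroitin sulfotransferase, read 7.04, 6.68 and 6.37 against at most 4.09. Ms4a2, the beta chain of the high-affinity IgE receptor, read 7.85, 8.0 and 7.96, with STHSC next at 4.95. Pram1, an adaptor of myeloid signalling, was 2.15 above IgM+SP. Gca, the calcium-binding protein grancalcin, was 1.57 above NKmature. Anxa3, an annexin of neutrophil granules, read 11.3, 11.3 and 11.2, with GM at 8.99. App, the amyloid precursor protein, and Met, the receptor for hepatocyte growth factor, were also in the set, with probe sets that ranged from -0.11 to 4.65 and from 0.34 to 5.62.

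**Figure D3:**
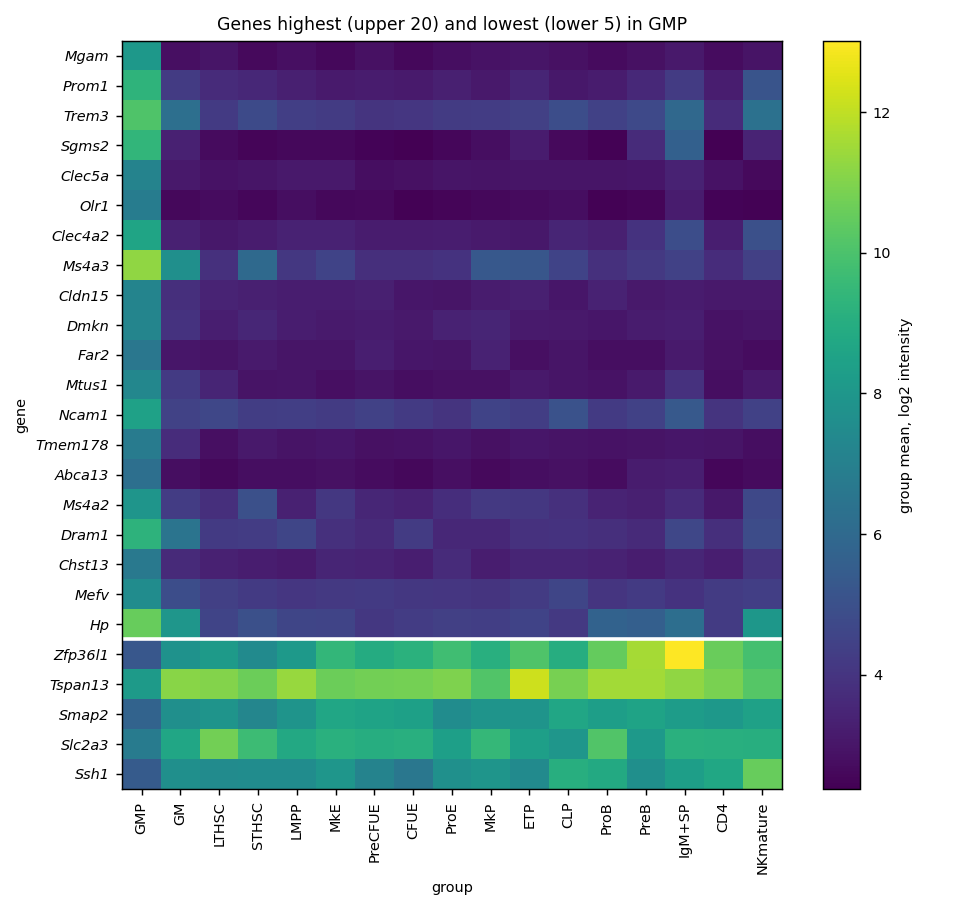
Group means (log2 intensity, colour) of the 20 genes highest in GMP by the gap to the next group, above the white line, and of the 5 genes called lower in GMP than in every other group, below it; rows are genes and columns are groups. The GMP column is brightest in each of the upper rows and darkest in each of the lower ones.

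Enzymes of NADPH supply and glutathione reduction were among the genes highest in GMP, named here after their values had been seen, except for the listed gene Gsr. Gsr, glutathione reductase, which uses NADPH, read 9.36, 9.14 and 8.76, with CFUE next at 7.37. Idh1, the cytosolic isocitrate dehydrogenase that makes NADPH, read 10.7, 10.7 and 10.5, and GM was next at 9.12. Pgd, 6-phosphogluconate dehydrogenase of the pentose phosphate pathway, read 12.6, 12.6 and 12.5, with GM at 11.4. Tigar, a phosphatase that diverts sugar to that pathway, read 7.82, 7.50 and 7.08, with NKmature at 6.31. Hk2, hexokinase 2, read 9.09, 9.04 and 8.88, with GM at 7.90. None of these overlapped another group, but they were named from the genes highest in GMP, so their lack of overlap is not a result. In the list for peroxide and glutathione handling, 5 of 16 tested genes were higher against the mean of the groups, beside 8.60% of all genes, and 1 was lower, beside 4.58%, with a median of 0.52 beside -0.045 for all genes. The others that rose were Mgst1 (4.43 ± 0.21, adjusted p = 3.8e-19), Gstm1 (3.26), Mgst2 (2.91) and Gsto1 (1.81), all glutathione transferases, and each had its highest mean in GMP. The second probe set of Mgst1 differed by -0.07. Prdx4, a peroxiredoxin of the endoplasmic reticulum, was lower by the test with a difference of -1.18, which became -0.53 when probe sets were averaged and -0.83 with the sex pattern as a term.

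In haem synthesis, Alas1, the general form of the enzyme that starts the pathway, read 11.3, 11.2 and 11.1 on the GMP arrays. GM was next at 9.36 and CLP was lowest at 5.92. The difference from the mean of the groups was 3.79 ± 0.28 (limma adjusted p = 7.5e-14), and it passed against each of the 16 groups. Of the 8 haem genes tested, Alas1 alone was higher, beside 8.60% of all genes, while 2, Alad (-1.28) and Ppox (-1.12), which act later, were lower, beside 4.58%. Neither of these calls held with the sex pattern as a term (adjusted p = 0.49 and 0.54), and the Ppox call was also lost without GMP replicate 3 (adjusted p = 0.092). Hfe, a membrane protein that controls iron uptake, belonged to the 91 genes, at 7.79, 7.64 and 7.34 against at most 6.25 elsewhere.

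The list of primary granule proteins had the largest median difference of the lists, apart from the 4 markers. It is not separate from them, since Elane, Ctsg and Hp are on both. Hp was placed on it when the list was drawn up, and the granule that holds haptoglobin was not examined. Against the mean of the groups, 11 of 13 tested were higher and 0 lower, beside 8.60% and 4.58% of all genes, with a median difference of 2.86. Mpo, myeloperoxidase, read 13.8 on all 3 GMP arrays, 13 and 13.1 on the GM arrays and 3.58 on average in CD4. Prtn3, proteinase 3, read 13.3, 13.4 and 13.4, with GM at 12.5 and CLP at 5.08. Against GM neither passed the test (Mpo 0.76 ± 0.83, adjusted p = 0.69; Prtn3 0.90 ± 0.52, adjusted p = 0.32), although the arrays did not overlap. Serpinb1a, an inhibitor of these proteases, read 11.3, 11.2 and 11.1, and its highest other array was at 11. Cst7, the protease inhibitor cystatin F, was 2.86 ± 0.21 above the mean of the groups, but NKmature reached the same level (9.45 beside 9.43 in GMP). Nkg7, a granule membrane protein shared with killer cells, was higher in NKmature (12.1) than in GMP (10.4); with the sex pattern as a term its difference was 0.61. Ctsc, cathepsin C, which activates the proteases, differed by 1.63 on its brightest probe set and by 0.59 over the mean of its 3. Lyz2, lysozyme, read 8.34, 8.20 and 7.95 and ranked 7 of 17; its call (1.37 ± 0.53, adjusted p = 0.041) was lost when any 1 GMP array was left out (adjusted p from 0.087 to 0.15), and its sign turned with the sex pattern as a term (-0.80). Srgn, the core proteoglycan of granules, did not pass the test (0.65).

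Of 14 genes of later granule proteins, 2 were higher against the mean of the groups and 0 lower, beside 8.60% and 4.58% of all genes, with a median of 0.10. Ltf, lactoferrin, read 5.58, 5.02 and 5.68 in GMP, while IgM+SP averaged 9.74 and NKmature 9.57. Camp, a cathelicidin, read 7.36, 6.83 and 7.25, and Ngp read 8.43, 7.95 and 8.22, with IgM+SP at 12. S100a8, a calcium-binding protein of neutrophils and monocytes, read 10.8, 10.7 and 10.8, but NKmature was at 12.1 and IgM+SP at 11.6. Its difference of 4.15 ± 1.17 (adjusted p = 0.0046) became 1.47 with the sex pattern as a term (adjusted p = 0.37). The call of Chil3 (3.15 ± 1.13, adjusted p = 0.025) was lost without any 1 GMP array (adjusted p from 0.077 to 0.11). The partner S100a9 differed by 2.37 ± 1.02 and missed the threshold (adjusted p = 0.063), which it passed without 1 of several other arrays. The mean level of the 14 genes was 5.56 to 5.77 on the GMP arrays, 7.75 to 7.85 on the NKmature arrays, 7.34 to 7.79 on IgM+SP, 3.94 to 7.42 on ProB and 3.36 to 7.88 on PreB. Against NKmature, 6 of 14 were lower in GMP (13.3% of all genes were), and against IgM+SP 4 of 14 were (8.37% of all genes). GM arrays ran from 5.00 to 5.95 and LMPP arrays from 3.64 to 6.14. Some arrays of lymphoid groups, of GM and of LMPP thus read more late granule RNA than the GMP arrays. The part this has in the differences from those groups was not tested.

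**Figure D4:**
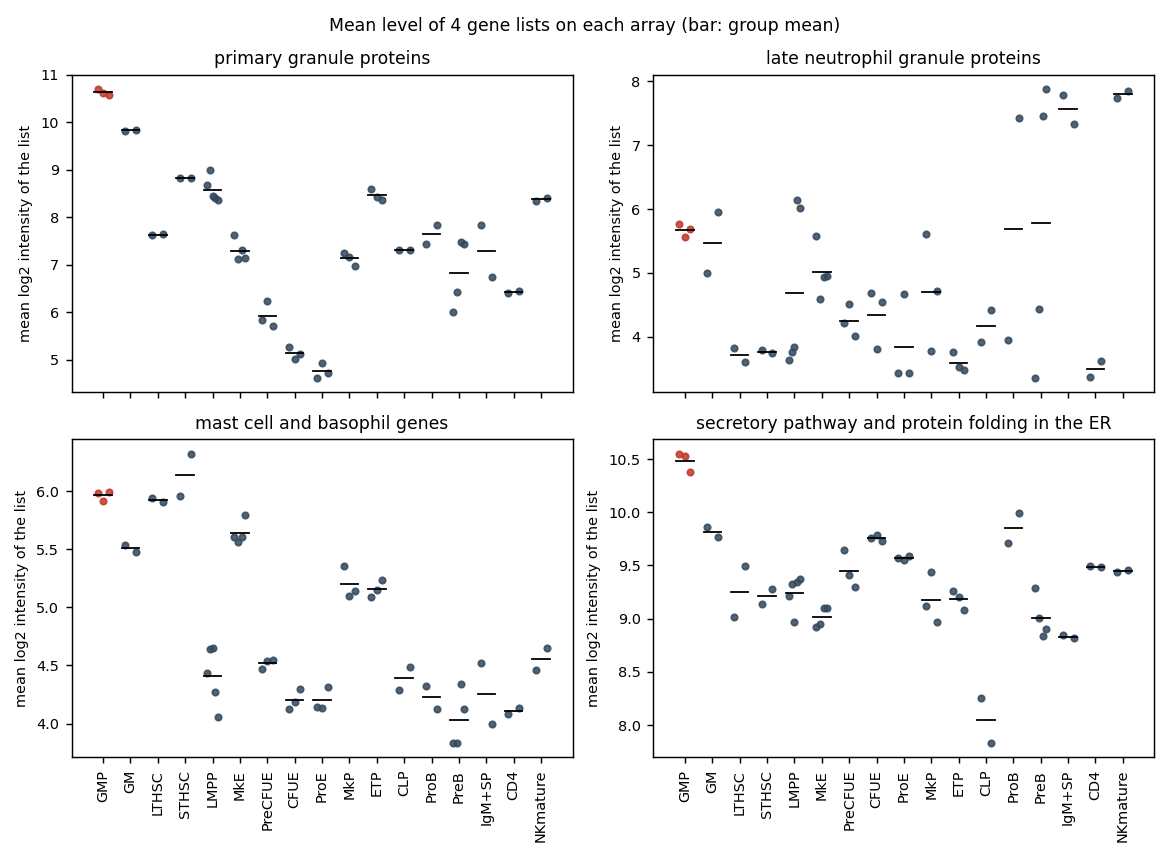
Mean log2 intensity (vertical axis) of the genes of 4 lists on each of the 47 arrays by group; points are arrays and bars are group means. For primary granule proteins and for the secretory pathway the 3 GMP arrays are the highest. For late neutrophil granule proteins the NKmature and IgM+SP arrays and some ProB, PreB, LMPP and GM arrays lie above GMP.

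Of 25 genes tested for carrying proteins into and through the endoplasmic reticulum and folding them there, 16 were higher against the mean of the groups and 0 lower, beside 8.60% and 4.58% of all genes, with a median of 1.25, and 16 had their highest mean of the 17 groups in GMP. On the GMP arrays the mean level of the list was 10.4 to 10.6, and the highest other array was one of ProB at 10.0. Calr, the chaperone calreticulin, read 12.6, 12.7 and 12.7, with GM at 11.7. Xbp1, the transcription factor of the unfolded protein response, read 11.1, 11.1 and 10.9, and ProB was close at 10.9. Rpn1, of the complex that adds sugar chains, read 12.1 on each array, with NKmature at 11.6. Spcs2, a signal peptidase subunit, read 11, 11 and 10.7 and passed against every group, with CD4 next at 9.81. P4hb, a protein disulfide isomerase, differed by 1.59 and Ssr1, of the translocon, by 1.34. Some calls rested on the brightest probe set: with probe sets averaged, Hspa5 (1.15) became 0.76, Pdia6 (1.78) became 0.96 and Pdia4 (1.81) became 0.91. Outside the list, and named after their values had been seen, Pdia5 and Ero1a, which form disulfide bonds, belonged to the 91 genes at 1.19 above ProB and 1.09 above ProE. In single comparisons the list was higher for 24 genes against CLP (26.5% of all genes were), 20 against LMPP (10.6%), 19 each against MkE (8.77%) and ETP (6.62%), 9 against ProB (16.7%), 8 against CFUE (10.8%) and 5 against GM (2.95%).

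Of 17 monocyte and macrophage genes, 11 were higher against the mean of the groups and 0 lower, beside 8.60% and 4.58% of all genes, with a median of 1.30. F13a1, coagulation factor XIII, read 11.4, 11.5 and 11.2, with GM next at 10.7 and CD4 at 3.39, and differed by 6.64 ± 0.36 (adjusted p = 1.4e-17). Csf1r, the receptor for M-CSF, read 10.9, 10.9 and 10.8 and was level with GM (10.9 and 10.9). Ms4a6c read 10.8, 10.8 and 10.3, with GM at 9.67, but its other probe set differed by -0.76. Irf8, a transcription factor of monocytic, dendritic and B cells, read 10.8, 10.7 and 10.6, while ProB was at 13.1. The ProB arrays also read the plasmacytoid dendritic list at 10.9 to 11.3, whose part in that level was not tested. Ly86 (3.30) and Mpeg1 (2.68), which encode an innate immune protein and a pore-forming protein of macrophages, were likewise higher in ProB. With the sex pattern as a term Mpeg1 differed by 0.28 and Cd14, a receptor for lipopolysaccharide, by -0.12 in place of 1.30. Ccr2, the chemokine receptor of circulating monocytes, did not pass the test (-0.53); its 4 probe sets ran from -0.53 to 2.54.

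Receptors for myeloid growth factors and antibodies were higher for 8 of 15 genes and lower for 0 against the mean of the groups, beside 8.60% and 4.58% of all genes, with a median of 1.12. GM had the same level: the list mean was 6.86 to 6.95 on GM and 6.80 to 6.98 on GMP. Against GM, 3 were higher and 2 lower, beside 2.95% and 5.00% of all genes (median -0.05). None of the genes had its highest mean in GMP. Fcgr3, an antibody receptor, read 9.33, 9.12 and 8.89 and was called above 15 groups and below NKmature (10.5). Fcgr2b, the inhibitory antibody receptor, differed by 2.00 and Csf2rb, the shared chain for IL-3, GM-CSF and IL-5, by 2.60. Csf3r, the G-CSF receptor, read 6.55, 5.92 and 6.20, below STHSC at 7.12. Kit, the stem cell factor receptor, differed by 1.53 on its brightest probe set, by 0.59 with probe sets averaged and by 0.36 with the sex pattern as a term. Flt3, a receptor of early lymphoid progenitors, did not pass against the mean (-0.81).

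Among transcription factors of the lineage, 9 of 21 were higher and 0 lower, beside 8.60% and 4.58% of all genes, with a median of 0.64. Cebpa, the factor that commits cells to the granulocyte line, read 6.72, 7.0 and 6.24 and was called above every group but GM, whose 2 arrays were at 7.49 and 6.96. Cebpd read 7.32, 7.38 and 7.15, above every other array. Gfi1, a repressor needed for neutrophils, read 9.39, 9.11 and 9.17, and IgM+SP was at 9.57. Tfec (7.73, 7.51 and 7.53) and Mitf (7.55, 7.63 and 7.43), related factors of macrophages, osteoclasts and mast cells, were highest in GMP, with LTHSC next at 7.03 and 6.53. The second probe set of Mitf differed by 0.04. Spi1, which encodes PU.1, did not pass (0.32 ± 0.24, adjusted p = 0.32), and it was lower in GMP than in LMPP (-1.04 ± 0.30, adjusted p = 0.0059). The calls of Klf4, Hoxa9 and Myb were lost under another setting: with probe sets averaged Klf4 differed by 0.96 and Hoxa9 by 0.74, and Myb by 0.95 without GMP replicate 1. The oxidase of phagocytes had 5 of 8 genes higher and 0 lower, beside the same 8.60% and 4.58%, led by Cybb (3.42 ± 0.37), its catalytic subunit, and Ncf1 (2.76 ± 0.27), a cytosolic subunit. Both were higher still in other groups: Cybb averaged 11.2 in ProB beside 8.79 in GMP, and Ncf1 11.4 in IgM+SP beside 10.3. Cyba, the partner of Cybb, did not pass (-0.40). The mean of this list was 8.50 to 8.77 on the GMP arrays. It was higher on ProB (10.0 to 10.3), IgM+SP (9.22), CD4 (9.09 to 9.12) and NKmature (8.86 to 8.87), and PreB arrays ran from 8.61 to 9.65. Every other group lay lower, with GM nearest at 8.04 to 8.14. Against ProB, 0 of 8 were higher in GMP and 4 lower, beside 16.7% and 12.8% of all genes.

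Of 9 mast cell and basophil genes, 4 were higher against the mean of the groups and 0 lower, beside 8.60% and 4.58% of all genes, and the median was -0.07. Besides Ms4a2, these were Cpa3, carboxypeptidase A3, at 9.16, 8.99 and 8.87, with ETP higher at 10.1; Mcpt8, a basophil protease, at 7.36, 7.29 and 7.19, with GM at 6.88; and Hdc, the enzyme that makes histamine, at 6.65, 6.85 and 7.22. The 2 probe sets of Hdc differed by 1.37 and 6.66. Gata2 (-0.41) and Slc18a2 (-0.39), also of mast cells, did not pass. The mean of the list was 5.91 to 5.99 on the GMP arrays, 5.90 to 5.94 on LTHSC and 5.96 to 6.32 on STHSC. The part that mast or basophil lineage cells have in the GMP levels was not tested.

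DNA replication genes were higher for 6 of 20 and lower for 0 against the mean of the groups, beside 8.60% and 4.58% of all genes (median 0.72), with Gins1 at 1.69 ± 0.16 and Cdc45 at 1.66 ± 0.27, both of the replicative helicase, and Cdc6, which loads it, at 1.89 ± 0.25. All 3 were higher in ProE than in GMP. Mitosis genes were higher for 3 of 19 (median 0.52), Bub1, Aurkb and Cep55, the last of which differed by 0.92 with probe sets averaged. Ribosome biogenesis gave 2 of 18 (median 0.61) and the respiratory chain 1 of 17 (median 0.37), all with 0 lower, shares near the 8.60% of all genes. Inhibitors of the cell cycle gave 0 higher and 6 of 16 lower, beside 4.58% (median -0.56), among them Foxo1 (-1.98) and Klf2 (-2.67), factors of resting cells, and Btg2 (-1.56), an antiproliferative gene. Foxo3 (-1.36) was lowest of all groups in GMP by its mean, and its difference was -0.71 with probe sets averaged.

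**Figure D5:**
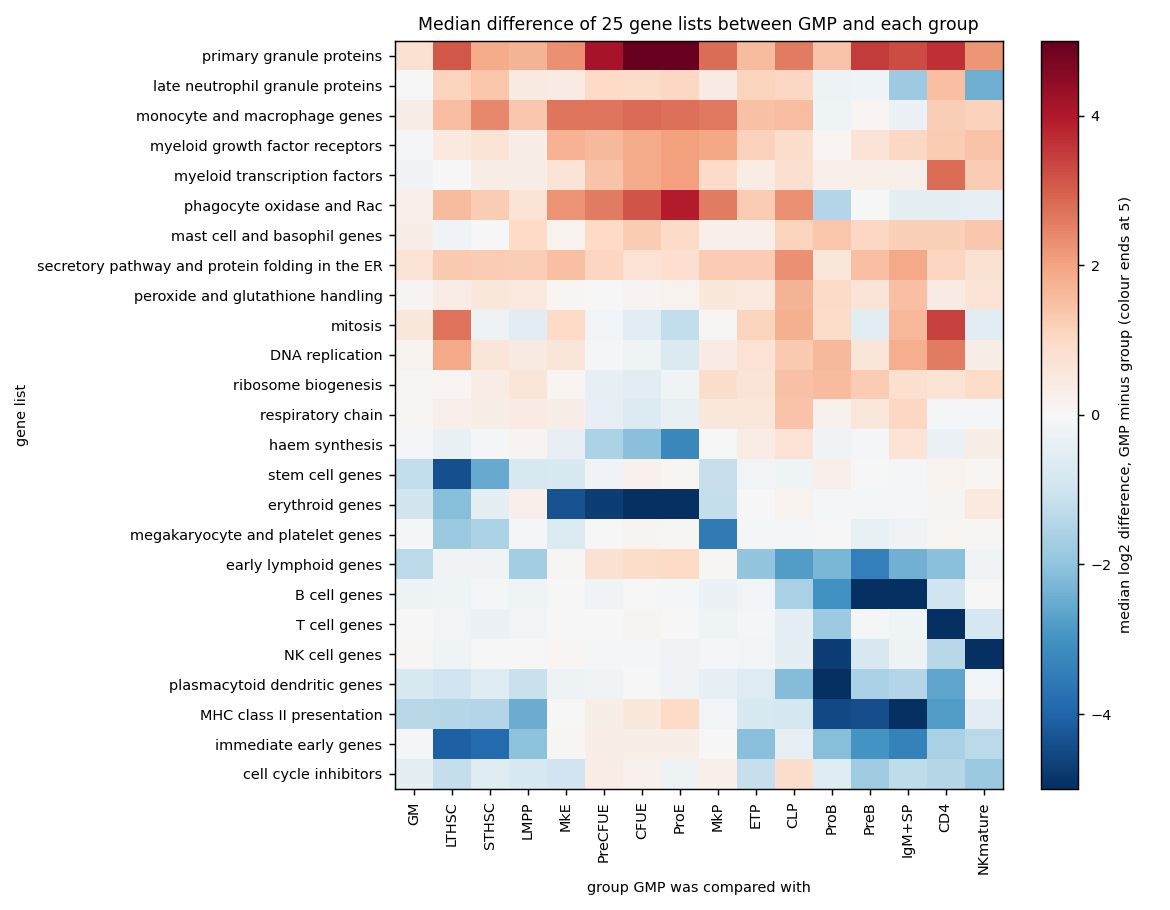
Median log2 difference between GMP and each of the 16 other groups (colour; red, higher in GMP) for the gene lists; rows are lists and columns are the groups compared. The primary granule and secretory pathway rows are red against every group, palest for GM in the first, and the early lymphoid row is blue against LMPP, GM, ETP and CLP.

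Only 5 genes (0.0358%) were called lower in GMP than in each of the 16 groups, although the GMP mean was the lowest of the 17 for 516 (3.70%). Zfp36l1, an RNA-binding protein that speeds the decay of messenger RNAs, read 5.58, 5.13 and 5.06 on the GMP arrays. All other arrays were at 7.04 or above, and IgM+SP averaged 13. The difference from the mean of the groups was -4.29 ± 0.25 (limma adjusted p = 1.4e-16) on this probe set and -0.30 on the other. Tspan13, a tetraspanin, read 8.23, 8.16 and 8.15, against 9.82 or more on every other array, and both of its probe sets were lower (-2.82 and -3.27). Smap2, a regulator of vesicle traffic, read 6.04, 5.77 and 5.44, against 7.21 or more. Slc2a3, a glucose transporter, read 6.82, 6.92 and 6.68 against 7.11 or more, and Ssh1, a phosphatase that activates cofilin, read 5.64, 5.36 and 5.27 against 6.37 or more. Their 4 probe sets each ran from -2.25 to -0.01 and from -2.59 to -0.33. All 5 were also lower than each of the 8 groups with arrays of the same sex pattern, and with that pattern as a term 3 of the 5 were lower than each group. With probe sets averaged, 5 genes were lower than each group, and 3 of those were among the 5 named here. Dstn, destrin, a relative of cofilin, was among the 91 genes higher in GMP, at 11.3, 11.4 and 11 against at most 9.90. Rps15, a ribosomal protein gene, read 7.91, 7.74 and 7.73, below every other array, and was called against 15 groups.

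Genes of other lineages were lower in part, beside 4.58% of all genes. Against the mean of the groups, erythroid genes were lower for 12 of 16 (median -1.35), B cell genes for 7 of 10 (-1.31), plasmacytoid dendritic genes for 6 of 8 (-1.68), early lymphoid genes for 7 of 16 (-0.84), T cell genes for 4 of 12 (-0.67), NK cell genes for 4 of 9 (-0.87) and stem cell genes for 5 of 16 (-0.76), with 0 higher in each. Megakaryocyte and platelet genes were lower for 4 of 16 and higher for 1, Fli1 (1.27), whose difference was 0.25 with probe sets averaged. The mean of the groups includes the populations that these lists mark. Without ProB, 4 of 8 plasmacytoid dendritic and 1 of 9 NK cell genes were lower. Zfpm1, a cofactor of GATA1, read 4.97, 4.62 and 4.74 and was below 14 groups. Gata1 itself read 6.08, 6.0 and 5.95, while the lowest group, NKmature, averaged 5.20 and the highest, ProE, 11.6. Pou2af1, a B cell coactivator, read 2.35, 2.36 and 2.45, under the level used to leave out dim genes. Irf7, a factor of interferon responses, read 4.64, 4.67 and 4.38, below all 44 other arrays, and was called against 12 groups.

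Of 9 genes of class II antigen presentation, 6 were lower and 1 higher against the mean of the groups, beside 4.58% and 8.60% of all genes (median -1.75). The mean of the list was 5.65 to 5.96 on the GMP arrays, and it was lower on PreCFUE (4.62 to 5.06), CFUE (4.49 to 4.54), ProE (4.31 to 4.37) and MkP (5.29 to 5.62). H2-Aa, a class II chain, read 6.83, 6.63 and 6.16, and Cd74, the invariant chain, read 4.46, 4.39 and 4.26, with ProB at 10.4. With the sex pattern as a term Cd74 did not pass (-0.68, adjusted p = 0.22). The gene that rose was Ctss, cathepsin S, also on the monocyte list. Of 14 immediate early genes, which respond within minutes to stimulation or handling of cells, 6 were lower and 0 higher, beside the same shares (median -1.18). Egr1 read 4.01, 4.43 and 4.26 in GMP and averaged 12.3 in LTHSC, and its difference was -4.07 ± 0.70 (adjusted p = 1.2e-05). Fos went its own way: it read 10.5, 10.5 and 10.8 and did not pass (1.74 ± 1.07, adjusted p = 0.20). The mean of the list was 5.56 to 5.72 on the GMP arrays but 4.98 to 9.52 across the LMPP arrays and 6.04 to 8.72 across the ETP arrays. It was highest on LTHSC (9.04 to 9.86) and STHSC (9.22 to 9.62), and lower than on GMP on GM (5.25 to 5.28), MkE (5.24 to 5.31), PreCFUE (4.82 to 4.97), CFUE (4.62 to 4.63), ProE (5.36 to 5.40) and MkP (4.97 to 5.26). How cells were handled before lysis is not given in the labels and its part in these values was not tested.

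GM was the closest population, and the comparison with it shows what separated them. Of all genes, 2.95% were called higher in GMP and 5.00% lower. The largest rises were in Sgms2 (6.03 ± 0.50, limma adjusted p = 1.6e-11), Clec4a2 (5.27 ± 0.40, 1.4e-12) and Gda (5.13 ± 0.56, 1.2e-08). Mgam, which passed the filter only through GMP, stood 5.27 above GM. Gda, guanine deaminase, read 11.2, 11.3 and 11 in GMP and 5.62 and 6.44 in GM. Klf4, a factor of monocytes, was higher by 4.02 ± 0.82, and Fcgr3 by 3.84 ± 0.39. Dntt, terminal transferase, an enzyme of lymphoid antigen receptor joining, fell most: GMP read 4.97, 4.90 and 4.69 and both GM arrays 12, a difference of -7.11 ± 0.46 (adjusted p = 2.5e-14). Gdpd3 (-4.17 ± 0.29), Nlrc3 (-4.01 ± 0.32) and Ctla2a (-3.86 ± 0.83, adjusted p = 0.0011) followed. Flt3 differed by -3.69 ± 0.37, Meis1, a stem cell homeobox factor, by -3.36 ± 0.32, and Hlf, another stem cell factor, by -3.04 ± 0.24.

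By list, against GM 9 of 16 early lymphoid genes, 8 of 16 stem cell genes and 7 of 16 erythroid genes were lower, with 0 higher in each. Of all genes, 5.00% were lower and 2.95% higher in this comparison. Genes of the primary granule list were higher for 2 of 13, with a median of 0.76, and monocyte genes for 4 of 17. The 2 were Elane and Hp, both also GMP markers, and the granule type of Hp was not examined. Mitosis genes gave 0 of 19 in either direction, near the shares of all genes. Csf1r (-0.06 ± 0.68) and Cebpa (-0.57 ± 0.23) did not pass. The counts of all genes depended on single GM arrays: without GM replicate 2 there were 245 higher and 430 lower, and without GM replicate 1 there were 464 lower. With the sex pattern as a term the higher count was 1425, and the share of higher calls went from 37.1% to 58.0%. No GM array shares the GMP sex pattern.

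ETP, the next most alike, differed in 923 genes higher (6.62%) and 817 lower (5.86%). S100a8 rose most, by 6.6 ± 1.6 (adjusted p = 0.0020), then F13a1 and Sgms2 by 6.19 each (± 0.49 and ± 0.45) and Ms4a3 by 6.05 ± 0.28. Dntt fell by 7.87 (SE 0.41, adjusted p = 1.3e-17) on the log2 scale, from 12.7 in ETP. Rgs1, a regulator of G protein signalling, differed by -6.99 ± 0.86, Slc35d3, a transporter, by -6.72 ± 0.55, and Mycn, a MYC family factor, by -6.26 ± 0.35. Of the early lymphoid genes 10 of 16 were lower, and of the primary granule genes 6 of 13 were higher.

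LMPP differed in 10.6% of genes higher in GMP and 6.24% lower. Ms4a3 rose by 7.15 ± 0.25 (adjusted p = 4.6e-23), from an LMPP range of 3.89 to 4.46. Sgms2 (6.78 ± 0.40), Gda (6.09 ± 0.45) and Prom1 (5.96 ± 0.30) followed. Dntt differed by -7.66 ± 0.37, and the 5 LMPP arrays read between 11.6 and 13. Ddx4, an RNA helicase best known from germ cells, differed by -5.18 ± 0.37, with LMPP arrays from 6.17 to 8.63. Socs3 (-5.05 ± 0.79), a feedback inhibitor of cytokine signalling, and Ccl3 (-4.93 ± 0.80), a chemokine, were uneven within LMPP: LMPP replicates 4 and 5 read 7.24 and 7.46 for Socs3 and 5.66 and 5.52 for Ccl3, against 9.29 to 9.98 and 9.86 to 11.3 on the other three. These 2 arrays were also the lowest of LMPP for the immediate early list. Of the early lymphoid genes 13 of 16 were lower, of the class II genes 7 of 9, and of the mitosis genes 4 of 19. Flt3 differed by -4.24 ± 0.29 and Cebpa by 1.55 ± 0.18.

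Against MkE, granule and red cell genes were among the largest differences. Of all genes 8.77% were higher in GMP and 6.79% lower. Ctsg rose by 8.03 ± 0.51 (adjusted p = 8.2e-16), Mpo by 7.83 ± 0.69, Anxa3 by 7.73 ± 0.39 and F13a1 by 7.61 ± 0.46. The lower genes were led by Mfsd2b (-7.28 ± 0.27, adjusted p = 1.7e-22), which exports sphingosine 1-phosphate from red cells and platelets, Trib2 (-7.13 ± 0.29), a pseudokinase, Ces2g (-6.75 ± 0.29), a carboxylesterase, and Aqp1 (-6.19 ± 0.33), the water channel of red cells. These 8 were picked from called genes without overlap between the groups, so their lack of overlap is not a result. Gata1 differed by -5.17 ± 0.25. Of the erythroid genes 13 of 16 were lower and 1 higher, with a median of -4.34, while of the monocyte genes 13 of 17 were higher. With the sex pattern as a term the count of genes higher in GMP was 2399.

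CLP stood at the lymphoid end. Of all genes 26.5% were higher in GMP and 9.41% lower, the largest imbalance after MkP and the comparison that moved most with centring. Prtn3 rose by 8.30 ± 0.52 (adjusted p = 1.5e-15), App by 7.60 ± 0.71, F13a1 by 7.60 ± 0.55 and Ctsg by 7.30 ± 0.61. Dntt differed by -8.39 ± 0.46 (adjusted p = 5.4e-17), Ebf1, the B cell commitment factor, by -8.11 ± 0.47, Il7r, the receptor for IL-7, by -7.37 ± 0.70 and Rag1, the recombinase of antigen receptor genes, by -6.74 ± 0.47. Ebf1 read between 2.44 and 2.55 on the GMP arrays and 10.4 and 10.8 on the CLP arrays. All 16 early lymphoid genes were lower in GMP, and 12 of 13 primary granule genes were higher.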

How the data were processed

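Each array measured 45101 Affymetrix probe sets. The authors deposited linear intensities computed with RMA, per the submitters' notes, with the scaling between arrays otherwise not given in the sources used here. Here log2 of these deposited intensities was taken with no pseudocount. Of the probe sets, 34958 had 1 gene symbol, 932 had several and were left out, and 9211 were unnamed; 34754 were matched to current RefSeq symbols by Entrez ID. The brightest probe set stood for each of 18194 genes. A gene was tested (13949 genes) if at least 1 group mean exceeded 3.889, the median of all log2 values. A model of 17 group means was fitted to all 47 arrays with limma 3.58.1 in R 4.3.3 (30 residual degrees of freedom, two-sided). P-values were adjusted by Benjamini-Hochberg within each comparison, and genes were called at adjusted p under 0.05 and at least 2-fold. A gene higher than each group had to be called in all 16 comparisons. With 3 GMP arrays and 2 to 5 in other groups, the number of arrays limits precision.

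On simulated data for 13949 genes with 200 changed, the comparison with the mean of the groups recovered 98% of log2 changes of 1.5 and 100% of 3. It called 1 unchanged gene. Calls in all 16 comparisons recovered 57% and 96%. The simulation gave all groups the same mean for a gene before GMP was shifted. The rates therefore do not describe genes on which the other groups differ, as many do here.

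The GMP group and the 26 gene lists (389 genes, 351 tested) were chosen with earlier results of these data known. Named genes were the 20 with the widest gap above every other group; the genes lowest in GMP; the 4 largest differences in each direction without overlap against GM, LMPP, MkE, CLP and ETP; and list members. Genes outside this rule were picked after their values were seen: Igsf6, Pram1, Gca, Hfe, Met, Idh1, Pgd, Hk2, Tigar, Lta4h, Ltb4r1, Dstn, Pdia5 and Ero1a. Array replicate numbers were not taken as pairs: in 0 of the 8 groups with 3 or more pairs did every pair of same-numbered arrays deviate together (correlation over 0.1). With so few arrays this check cannot exclude pairing, and the PreCFUE pairs ran from 0.026 to 0.272, while the MkE pairs ran from -0.281 to -0.005.

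Alternatives covered the probe set rule, the filter, the scaling, a floor, a sex term, a replicate block, each array left out, and, chosen after seeing the data, arrays of the GMP sex pattern alone and fits without CLP or without ProB.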

Additional observations from a re-analysis of the deposited data

Results flagged for a closer look

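Of 26 gene and group pairs checked for an array far from its group, 1 stood out. Sgms2 in LMPP had replicate 4 at 2.76, while the nearest of the other arrays was at 2.57 and the lowest at 2.53, a gap of 0.842 of the group's range of 5 arrays, above the critical value of 0.71. Chance marks about 1 in 20 such groups. The GMP arrays read 9.32 to 9.44 for this gene.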

How the results depend on the processing

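Of 344 counts under other settings, 329 stayed within 1.5 times the reported count, as did 1689 of 1692 with 1 array left out. Of 1461 differences of named genes from the mean of the groups under other settings, 1404 kept the call. A gene called in neither fit was counted as kept whatever its sign. Among genes called in at least 1 of the fits, 3 reversed, all with the sex pattern as a term (Lyz2 -0.80, Cd14 -0.12, Ltf -2.28). The cause of the shifts below was not tested. Only PreB holds arrays with Xist alone (replicates 1 and 2) beside arrays of the GMP pattern (replicates 3 and 4). LMPP and ETP hold arrays with both genes beside arrays of the GMP pattern. For groups with Xist alone, the shift made by the sex term thus rests on PreB, whose late granule means ran from 3.36 to 7.88. With probe sets averaged, higher calls were 1510 against STHSC, 937 against LMPP and 788 against the mean of the groups, and lower calls against MkP were 499. With the sex pattern as a term, whose effect only LMPP, PreB and ETP inform, higher calls were 2399 against MkE, 2102 against PreCFUE, 3492 against MkP and 1425 against GM, lower calls against MkP were 1272, and 3 genes were lower than in each group; the share of higher calls was 64.9% against CFUE (53.2% before), 67.9% against ProB (56.5%) and 62.7% against CD4 (52.0%). With a second quantile normalization MkP gave 1365 higher and 1336 lower, and CLP 2126 lower; CLP gave 869 lower with a stricter filter and 820 lower with centring, which moved the median of all genes in that comparison to 0.31. Leaving out 1 array at a time gave 245 to 430 higher and 430 to 726 lower calls against GM, 76 to 94 genes higher than in each group and 4 to 7 lower. Of the 91 genes, 65 were shared with probe sets averaged, 56 with the sex term, 82 with a floor of 16, 80 with a stricter filter, 87 with quantile normalization and 85 with centring. The replicate block gave 1219 higher and 645 lower calls against the mean of the groups and 92 genes higher than in each, 89 of them shared. Whether the replicate numbers pair the samples is not given in the labels. Fits of 2 groups alone moved no count beyond 1.5 times. Dim genes have only a lower bound on their change.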
